A study of Caenorhabditis elegans with 3 samples.

Results

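Of the 3629 autosomal regions where NHR-25 binding was found reproducibly, 531 had their summit in the promoter windows of 2 or more protein-coding genes at once, and these sites are described here. The rule took the reproducible (optimal) list on the ce11 build, which holds 4548 regions, and kept summits that lie between 1000 bp upstream and 200 bp downstream of a transcript start of 2 or more different genes. The genes at such a site were transcribed away from each other at 453 sites (divergent pairs) and in the same direction at 42 sites (same-strand pairs). At 35 sites 3 or more genes were in reach, and at 1 site the pair faced each other. The other autosomal regions were 1428 with a single gene in reach and 1670 with none. The rule used positions and gene models alone, and neither the signal of a region nor its sequence.

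Binding was measured by chromatin immunoprecipitation and sequencing of whole Caenorhabditis elegans larvae at the L2 stage, mixed in sex, in 3 biological replicates that form 1 group with no second condition. All worms were of strain OP33, which carries unc-119(ed3) III and wgIs33, an integrated transgene whose NHR-25 ends in a GFP-FLAG tag. The tagged protein was pulled down from worms that also hold their own untagged NHR-25, and the profile averages all cells of the larva. Replicates 1 and 2 are labelled with a fragment size range and with a strain from the CGC, and replicate 3 with microtip sonication and another source, so these features separate replicate 3 from the other two. The control library shared by the replicates was not analysed here, the files give no read counts, and the depth of each library is unknown.

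NHR-25 is a nuclear hormone receptor related to fly FTZ-F1 and mammalian SF-1, which bind DNA as monomers at extended AGGTCA half-sites, and it is known for roles in the epidermis, molting and vulval development. Many neighbouring genes of the compact worm genome are transcribed away from each other from a short common upstream region, so that a factor bound there cannot be assigned to one of the genes by position. Other neighbours lie head to tail in operons, where 1 promoter drives several genes and the downstream starts arise by trans-splicing, so an annotated start need not be where transcription begins.

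The strongest shared sites that recurred in all 3 replicates repeated some of the same letters. The 9 shown here held no nuclear receptor half-site (AGGTCA). Only 2.64% of all shared summits held it, so 9 sequences are too few to make its absence a trait of strong sites. The first 6 are divergent and the last 3 same-strand sites, each in the order of signal, from 50 bp before to 50 bp after the summit on the plus strand of ce11. Capitals mark matches on either strand to the motifs and short strings that are counted further on.
Y17G9B.5/rpl-20, chrIV:4750014-4750114: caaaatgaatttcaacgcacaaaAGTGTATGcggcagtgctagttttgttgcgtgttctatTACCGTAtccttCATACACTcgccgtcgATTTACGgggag
tasp-1/K01G5.10, chrIII:10759203-10759303: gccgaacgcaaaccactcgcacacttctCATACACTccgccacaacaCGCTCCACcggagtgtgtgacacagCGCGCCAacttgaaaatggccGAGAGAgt
rpl-15/K11H12.8, chrIV:654872-654972: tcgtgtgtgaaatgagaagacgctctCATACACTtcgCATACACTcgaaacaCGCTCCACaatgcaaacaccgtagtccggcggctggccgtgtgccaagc
iff-2/F54C9.14, chrII:8561379-8561479: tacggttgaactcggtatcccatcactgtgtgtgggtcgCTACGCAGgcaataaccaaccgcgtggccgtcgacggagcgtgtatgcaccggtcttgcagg
tag-340/nhl-2, chrIII:4899873-4899973: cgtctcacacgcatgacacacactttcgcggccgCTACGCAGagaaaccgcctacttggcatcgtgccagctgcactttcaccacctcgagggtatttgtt
drr-2/set-16, chrIII:13643683-13643783: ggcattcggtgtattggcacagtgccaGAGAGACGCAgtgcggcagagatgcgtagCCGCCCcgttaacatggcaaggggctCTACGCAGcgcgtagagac
sec-61.G/F32D8.13, chrV:10897330-10897430: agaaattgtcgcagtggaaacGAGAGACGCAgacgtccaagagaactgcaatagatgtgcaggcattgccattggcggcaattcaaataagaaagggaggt
rps-28/Y41D4B.4, chrIV:1659197-1659297: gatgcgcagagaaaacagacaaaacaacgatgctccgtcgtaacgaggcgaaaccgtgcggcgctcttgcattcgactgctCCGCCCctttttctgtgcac
ddp-1/ttc-7, chrIII:1859663-1859763: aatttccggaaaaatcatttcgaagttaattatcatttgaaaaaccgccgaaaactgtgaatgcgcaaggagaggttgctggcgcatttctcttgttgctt

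A 7-base string, CGAGACC, had the lowest p of all strings compared between shared sites and sites with a single gene (values below). The 8 strongest shared sites that hold it and whose sequence is shown are aligned here on the string, each read 5′ to 3′ on the strand that carries it, with the string in capitals. The letters tcg end 3 bases before the string at 6 of these 8 sites.
mig-5/cct-1, chrII:8185190-8185226, minus strand: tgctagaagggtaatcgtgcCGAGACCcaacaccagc
rpn-3/hsp-110, chrIII:8447145-8447181, plus strand: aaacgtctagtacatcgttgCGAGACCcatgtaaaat
cap-2/gmps-1, chrII:10868926-10868962, minus strand: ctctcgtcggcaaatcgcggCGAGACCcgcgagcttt
W03C9.5/rab-7/mex-1, chrII:11967714-11967750, plus strand: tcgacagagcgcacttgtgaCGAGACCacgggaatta
wapl-1/htz-1, chrIV:4445871-4445907, plus strand: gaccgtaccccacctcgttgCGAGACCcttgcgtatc
ant-1.1/T27E9.2/abcf-2, chrIII:13463097-13463133, plus strand: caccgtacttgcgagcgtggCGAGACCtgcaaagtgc
npp-3/top-2, chrII:11874873-11874909, plus strand: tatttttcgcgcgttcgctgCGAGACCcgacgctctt
C17H12.2/vha-8, chrIV:6790614-6790650, minus strand: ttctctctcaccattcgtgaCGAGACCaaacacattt

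Sites lay in shared promoter sequence more often than its length would give. Shared windows covered 2.54 Mb of the 22.4 Mb of autosomal promoter windows, or 11.3% of their bases, and held 531 of 1959 promoter summits, or 27.1% (95% Wilson interval 25.2 to 29.1). The share was 2.39-fold that of the bases (exact binomial test, two-sided, p = 6.66e-82), with 208.9 summits per Mb of shared window and 71.7 per Mb of window of a single gene. With windows of 500 bp upstream the ratio was 3.62. The test took all window bases as alike, although a base in a shared window is in reach of 2 or more starts. Summits were a median of 139 bp from the nearest start at shared sites and 255 bp at single-gene sites. How much of the excess comes with the number of starts in reach was not tested. Each replicate gave a similar number of shared sites when the rule was put on its own 4548 strongest regions, namely 556, 542 and 538 (545.3 ± 9.45, SD, n = 3), which were 28.9%, 28.4% and 28.7% of its autosomal promoter summits. Divergent pairs were 85.6%, 84.9% and 85.3% of these shared sites. Sites were treated as independent in this and the following tests, which they are not, so that p-values describe these lists of sites and not a difference between worms.

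The 531 sites stood at 518 different sets of genes, with 1068 genes in all, and 13 sets had several sites. On the 5 autosomes the shared sites were 30.0%, 22.2%, 33.2%, 25.1% and 24.0% of promoter sites in the order of the chromosome numbers, with the highest number, 136, on the third. Divergent windows held 215 sites per Mb and same-strand windows 133.9, a ratio of 1.61 (exact binomial test, two-sided, p = 0.00251), a test that was added after the densities had been seen. Windows of 3 or more genes held 323.9 sites per Mb, from 35 sites in 0.108 Mb.

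The share of gene pairs with a shared site differed with the distance between their starts. Of all 2994 autosomal divergent pairs with overlapping windows, 513 (17.1%) had a shared site. The share was 19.8% (95% Wilson interval 16.1 to 23.9) of 400 pairs with starts under 250 bp apart and 33.4% (29.6 to 37.4) of 551 pairs at 250 to 500 bp, where it was highest. It was 22.4% of 495 pairs at 500 to 750 bp, 8.74% of 618 at 1000 to 1500 bp and 1.99% of 552 at 1500 to 2000 bp, where the windows overlap only over their far ends. Of 1039 same-strand pairs with overlapping windows 76 (7.31%) had a shared site, counting those at sites with 3 or more genes. This share fell from 23.7% (16.8 to 32.3) of 114 pairs with starts under 300 bp apart to 4.28% (3.08 to 5.92) of 794 pairs at 600 to 1200 bp. For same-strand pairs the stretch that lies in both windows gets shorter as the starts move apart, and for divergent pairs it first grows and then shrinks. The shares were not scaled to its length, so part of these differences follows from the rule.

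**Figure D1:**
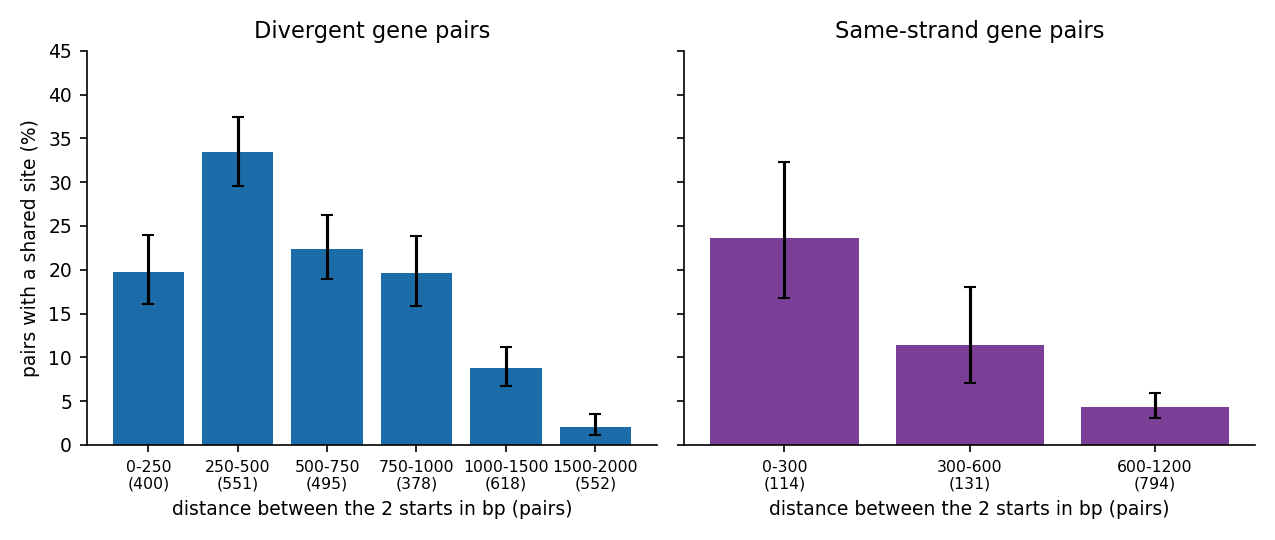
Share of autosomal gene pairs with overlapping promoter windows that had a shared NHR-25 site, in %, by the distance between their starts in bp, for divergent pairs (left) and same-strand pairs (right). Bars are shares, error bars 95% Wilson intervals over pairs, and the numbers of pairs stand in brackets; divergent pairs peak at 33.4% for 250 to 500 bp, and same-strand pairs fall from 23.7% to 4.28%.

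Shared sites had higher signals than sites with a single gene and were found more often in every replicate. The signal is the value the authors' peak caller gave each region, and its scaling is not stated in the files. Its median was 247.1 over the shared sites (range 106.8 to 2271) and 180.5 over the sites of a single gene. At or above the median of all autosomal sites, which 50% of sites are by construction, stood 356 of 531 shared sites (67.04%, 95% Wilson interval 62.9 to 70.9) and 710 of 1428 single-gene sites (49.7%, 47.1 to 52.3). The difference was 17.3 percentage points (12.5 to 22, Fisher's exact test, two-sided, p = 6.62e-12).

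A site was counted as found in a replicate when it overlapped one of that replicate's 4548 strongest regions. Shared sites were found at 87.2%, 82.1% and 83.8% in replicates 1, 2 and 3, and single-gene sites at 81.4%, 76.1% and 76.5%, so the shared sites were higher in 3 of 3 replicates. All 3 replicates found 363 of 531 shared sites (68.4%, 64.3 to 72.2) and 782 of 1428 single-gene sites (54.8%, 52.2 to 57.3), against 55.1% of all autosomal sites. The difference was 13.6 points (8.78 to 18.2, Fisher's exact test, two-sided, p = 5.65e-08). Signal and recurrence go together, and among the stronger 2274 regions of the list the difference in recurrence was 1.85 points (Fisher's exact test p = 0.322), so that it was not detectable there.

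Divergent and same-strand sites did not differ detectably in either measure. All 3 replicates found 68.9% of the 453 divergent and 66.7% of the 42 same-strand sites, a difference of 2.21 points with an interval from -10.9 to 17.9 (Fisher's exact test, two-sided, p = 0.862). At or above the median signal of all autosomal sites were 67.5% and 64.3%, a difference of 3.26 points (-10.2 to 18.9, Fisher's exact test, two-sided, p = 0.731). With 42 same-strand sites a difference of 10 points either way lies inside these intervals. The medians of the signal were 247.1 for divergent sites, 242.5 for same-strand sites and 252.1 for sites with 3 or more genes.

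**Figure D2:**
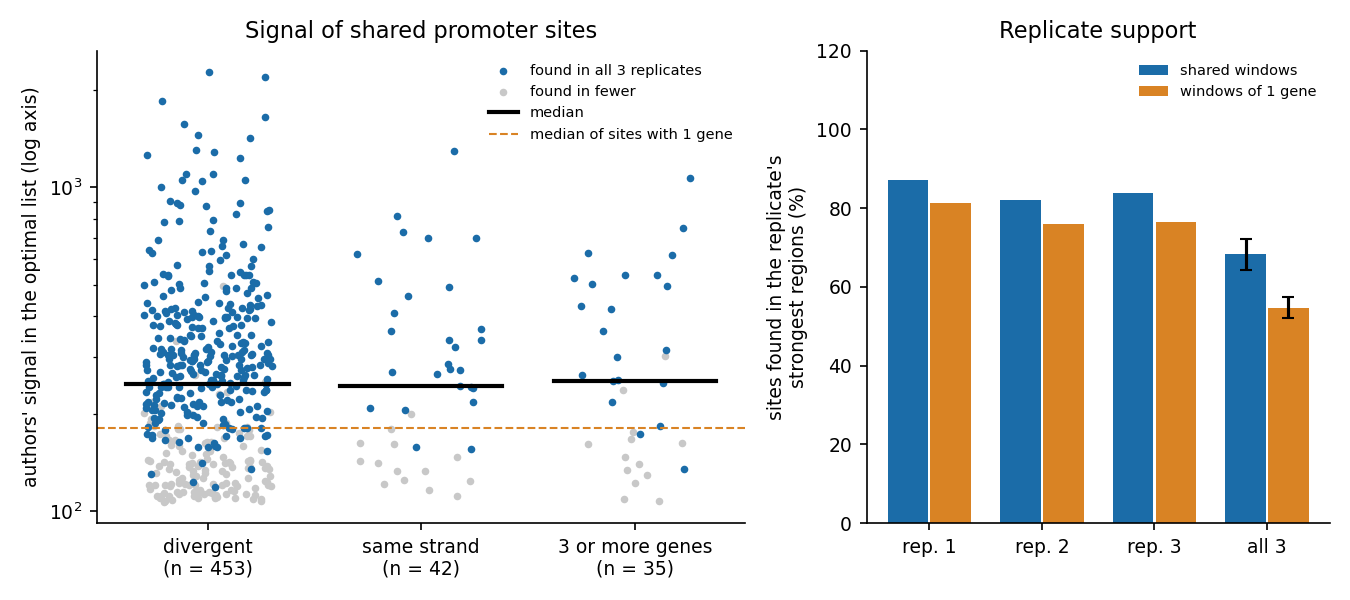
Left, the authors' signal in the optimal list (log axis) of each shared site by class, with sites found in all 3 replicates in blue and the others in grey, the class median as a black line and the median of single-gene sites, 180.5, as a dashed line. Right, the share of shared and single-gene sites found among the 4548 strongest regions of each replicate and of all 3, in %, with 95% Wilson intervals on the last pair; the shared sites are higher in each replicate.

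Summits at divergent pairs mostly stood between the starts of the genes. The summit lay between the starts at 425 of 453 sites (93.8%), and in the middle one of 3 equal parts of the interval at 197 of those 425 (46.4%, 95% Wilson interval 41.7 to 51.1). The starts were a median of 498 bp apart (quartiles 310 and 770, range 12 to 1771), and the summit was a median of 138 bp from the nearer and 334 bp from the farther start. The gene on the plus strand was nearer at 226 sites and the gene on the minus strand at 226, with 1 tie. Which strand is called plus is arbitrary, so this split cannot show whether 1 gene of a pair is favoured. Both starts were within 300 bp of the summit at 199 sites (43.9%). Windows reach 1000 bp upstream but 200 bp downstream of a start, so the rule itself favours summits between widely spaced starts. These shares were not set against the positions that the rule allows, and part of them follows from it.

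**Figure D3:**
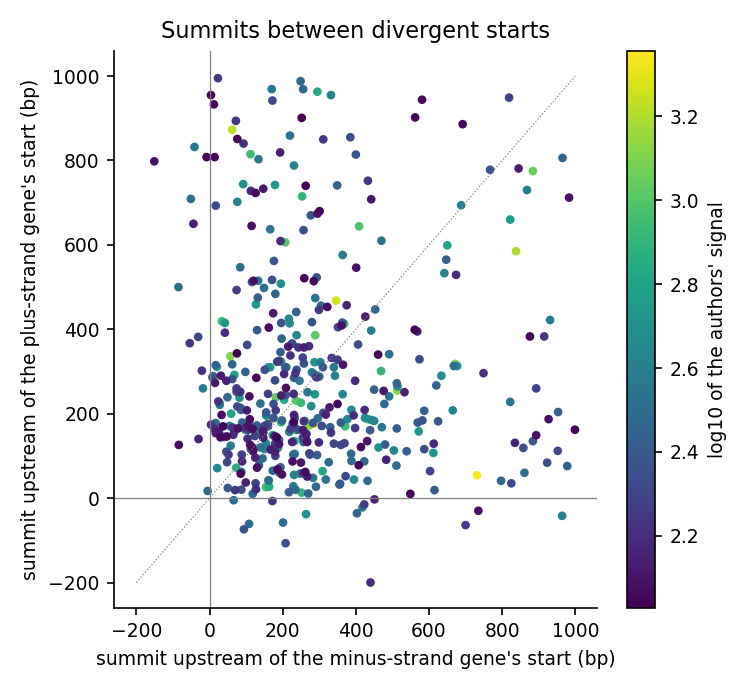
Each point is the summit of 1 of the 453 divergent sites, by its distance in bp upstream of the minus-strand gene's start (horizontal) and of the plus-strand gene's start (vertical), coloured by log10 of the authors' signal; negative values lie inside the gene. The dotted line marks equal distances, with 226 sites on each side of it, and most points lie within 300 bp of at least 1 start.

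Of the 12 strongest divergent sites found in all 3 replicates, 9 had a gene of the ribosome or a translation factor on at least 1 side, as had 55 of all 453 divergent sites (12.1%). The strongest of all, with a signal of 2271, lay 286 bp upstream of rpl-20, which encodes a protein of the large ribosomal subunit, and 176 bp upstream of Y17G9B.5. It ranked 20, 5 and 19 in replicates 1, 2 and 3, with signals of 434.3, 321.3 and 376.6 there. The site of rpl-15, another large-subunit gene, and K11H12.8 had a signal of 1851 and ranked 28, 6 and 22. These ranks put both sites among the 30 strongest regions of all 3 replicates.

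The site with a signal of 2194 lay 54 bp upstream of tasp-1, the worm taspase gene, and 731 bp upstream of K01G5.10, and it ranked 23, 3 and 21. The site 62 bp upstream of iff-2, a translation initiation factor 5A gene, had a signal of 1647 and ranked 27, 8 and 26. The site of tag-340 and nhl-2, whose TRIM-NHL protein acts with microRNAs, had a signal of 1568 and ranked 33, 7 and 24, at 838 bp from nhl-2. The site between drr-2, an initiation factor 4H relative, and set-16, a histone methyltransferase gene of the MLL kind, had a signal of 1452 and ranked 42, 10 and 23, with the starts 163 and 183 bp away. Replicate 2 gave each of these 6 sites its best rank, and all stayed among its 10 strongest regions.

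Further divergent sites in the order of signal were hsr-9/rps-19 (1417), rps-1/ifet-1 (1306), rpl-12/lin-54 (1286), wip-1/larp-1 (1263), ska-3/rps-12 (1233) and mig-5/cct-1 (1104). The rps and rpl genes encode ribosomal proteins, ifet-1 a translational repressor that binds eIF4E, and larp-1 a member of the LARP family that binds mRNA. Their partners include hsr-9, a 53BP1 relative, lin-54, a DNA-binding subunit of the DREAM complex, ska-3, a kinetochore protein gene, and mig-5, a Dishevelled gene of Wnt signalling. Across these 6 sites the ranks ran from 16 to 93 over the 3 replicates.

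Of 17242 autosomal protein-coding genes 6.19% had a start at a shared site, and 13.4% at any promoter site. Cytosolic ribosomal protein genes had 45 of 82 at shared sites (54.9%) and 67 of 82 at any promoter site, and 39 of their 42 shared sites were found in all 3 replicates, with a median signal of 420.1. The ribosomal gene was the nearest gene at 18 of those 42 sites. Of the sites 3 served 2 ribosomal protein genes at once, rps-14/rpl-36, rpl-24.1/rps-10 and rps-30/rpl-39.

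Translation factor genes had 18 of 45 at shared sites, proteasome subunits 12 of 33, respiratory chain and ATP synthase subunits 15 of 47, splicing factors 18 of 59 and genes of the secretory pathway 17 of 55, or 30.5% or more of each list. Among their sites, trap-3/sec-61.B joined a pair of genes of protein translocation into the endoplasmic reticulum (signal 790.2, ranks 148, 119 and 159), and rsp-1/rsp-2 a pair of SR splicing factor genes. The site between rpn-3, a proteasome lid gene, and hsp-110, a chaperone gene, had a signal of 854.7 and ranked 138, 93 and 139. Chaperone genes had 19 of 83, and the site between C47E8.4 and hsp-90 had a signal of 1057 and ranked 80, 68 and 57.

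RNA polymerase and general transcription factor genes had 15 of 71 at shared sites, which were 15 of the 18 with any promoter site. Of the DREAM complex, which represses cell cycle and germline genes, 4 of 8 genes were at shared sites. A gene of the complex was the nearest gene at 1 of their 4 sites. Among the 4 genes was lin-53, a histone-binding subunit gene, opposite nra-2 (signal 1048, ranks 85, 49 and 74). Histone genes had 11 of 76, at 6 sites, of which 5 served 2 histone genes each, such as his-32/his-31 (signal 636.4, ranks 239, 157 and 314). Near-identical histone genes can share reads, and how the authors treated such reads is not given in the sources used here.

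Nuclear hormone receptor genes had 39 of 247 at any promoter site (15.8%) but 5 of 247 at shared sites (2.02%), among them nhr-152/nhr-94 (signal 307.8, ranks 1275, 950 and 1004). Cuticle collagen genes had 24 of 141 at any promoter site and 7 at shared sites, including col-3/col-117 (signal 317.2, ranks 2073, 1342 and 469) and the same-strand pair col-160/col-159 with 2 sites. Chromatin modifier genes had 23 of 62 at any and 9 at shared sites. Over all genes with a promoter site 46.4% were at a shared site, against 12.8% of the bound nuclear receptor genes, 29.2% of the bound collagen genes, 39.1% of the bound chromatin modifier genes and 67.2% of the bound ribosomal protein genes. No set test was made, how the lists differ in the share of members that have a divergent neighbour was not tested, and the lists were drawn up with earlier results of these data known.

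The remaining lists were aminoacyl-tRNA synthetases with 7 of 32 genes at shared sites, V-ATPase subunits with 2 of 17, the mitochondrial ribosome with 13 of 70, mitochondrial import with 5 of 17, nuclear pore and transport with 11 of 40, DNA replication and repair with 8 of 39 and heterochronic genes with 2 of 9. In all, 206 of the 531 sites (38.8%) had a gene of at least 1 of the 20 lists. The list gene was not always the nearest. It was so at 10 of 12 proteasome and 5 of 6 histone sites, but at 6 of 21 chaperone, 2 of 9 chromatin modifier and 1 of 11 nuclear pore sites.

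**Figure D4:**
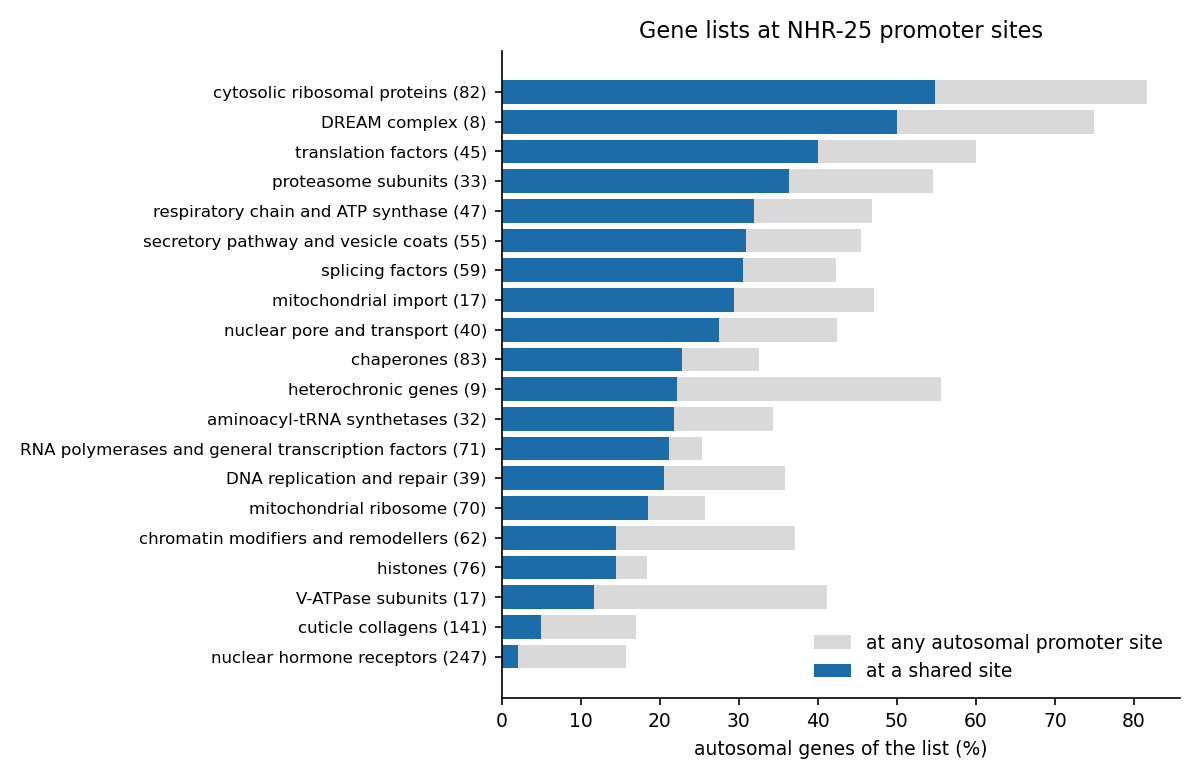
Share of the autosomal genes of each list, in %, with a start within reach of any autosomal promoter site (grey) and of a shared site (blue, drawn over the grey), with the number of genes in brackets. Cytosolic ribosomal proteins are highest at 54.9% for shared sites and nuclear hormone receptors lowest at 2.02%, while 6.19% and 13.4% of all autosomal genes were at a shared and at any promoter site.

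Same-strand sites fell into 2 kinds of gene arrangement. At 23 of the 42 the genes followed each other without overlap, with a median of 99 bp between the end of the first and the start of the next (range 47 to 529). At 19 the gene models overlapped, and at 14 sites (33.3%) a member of the pair was a gene model under 200 bp long, against 3 of 453 divergent sites (0.662%). The summit was upstream of both starts at 40 sites and within 300 bp of the upstream start at 34, with medians of 162 bp upstream of the first and 769 bp upstream of the second start.

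The strongest same-strand site, with a signal of 1293, lay 237 bp upstream of sec-61.G, which encodes the gamma subunit of the Sec61 translocon, and 837 bp upstream of F32D8.13. It ranked 40, 48 and 31 in replicates 1, 2 and 3. The site 444 bp upstream of rps-28, a small ribosomal subunit gene, and 863 bp upstream of Y41D4B.4 had a signal of 818 and ranked 165, 124 and 123. The site 175 bp upstream of ddp-1, a gene for a small Tim protein of mitochondrial import, and 716 bp upstream of ttc-7 had a signal of 728.9 and ranked 133, 196 and 198. The site 112 bp upstream of rpb-11, an RNA polymerase II subunit gene, and 766 bp upstream of W01G7.4 had a signal of 696.3 and ranked 195, 178 and 194. At these 4 pairs the genes were 114, 112, 47 and 114 bp apart.

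Overlapping pairs with a very short second gene model gave other strong same-strand sites. The site of egl-30, which encodes the alpha subunit of the Gq protein, had a signal of 695.4 and was shared with C53H9.4, a gene model of 93 bp on the same strand, whose start was 186 bp from the summit. The sites of tub-2, pqn-51, B0361.9 and F57A8.1, with signals from 410.6 to 515.3, were paired in the same way with gene models of 30 to 51 bp. The gene models of rpl-23 and swp-1 (signal 622.9, ranks 290, 399 and 173) overlapped by 1 bp, and those of rpl-29 and thoc-7 (signal 359.8, ranks 1212, 772 and 641) were separate.

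Where 3 or more genes were in reach, the strongest site (signal 1066, ranks 84, 72 and 51) lay between the histone genes his-68 and his-67, 798 bp upstream of alg-5, an Argonaute gene. The site of Y71H2AM.20, nduc-2 and cox-6B, a gene for a subunit of cytochrome c oxidase, had a signal of 749 and ranked 135, 258 and 164. The site 179 bp upstream of W03C9.5 and 792 bp upstream of rab-7, a gene of endosomal transport, ranked 170, 630 and 199, lowest in replicate 2. The single facing pair, rpb-7 and Y54E10BR.2, had a signal of 207.

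The 10 motifs were searched by their letters on both strands within 50 bp of each summit. Of these, 4 differed between shared summits and flanks (exact McNemar tests, two-sided, Benjamini-Hochberg over 10 motifs). Flanks were windows centred 500 bp further along the chromosome's plus strand, whatever the direction of the genes. At divergent sites the farther start was a median of 334 bp from the summit, so many flanks are centred past the plus-strand gene's start. The part of this in the differences was not tested. A GAGA repeat (GAGAGA) was held by 97 of 531 summits (18.3%, 95% Wilson interval 15.2 to 21.8) and 4.90% of flanks (adjusted p = 7.04e-11 with the exact McNemar test). A hexamer of worm promoters (GACGCA) was held by 89 summits (16.8%) and 2.45% of flanks (adjusted p = 1.91e-14 with the exact McNemar test). A GC-box-type site (CCGCCC) was held by 33 summits (6.21%) and 0.565% of flanks (adjusted p = 7.57e-07 with the exact McNemar test). A TATA element (TATAAA) was lower at summits, with 5.27% against 9.23% (adjusted p = 0.0425 with the exact McNemar test), but this call was lost under 6 of 11 alternatives. The mean GC content was 45.2% at shared summits and 38.3% in their flanks, and its part in these shares was not tested. As background, 25.8%, 12.8%, 4.49% and 7.05% of all autosomal summits held these 4 motifs in the same order.

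The short half-site of nuclear receptors (AGGTCA) was as frequent at shared summits as beside them, in 14 of 531 (2.64%) in both. It was held by 78 of 1428 single-gene summits (5.46%) and 6.01% of all autosomal summits. The difference between shared and single-gene summits was -2.83 points (-4.51 to -0.786, Fisher's exact test, two-sided, adjusted p = 0.0396 over 10 motifs). The GAGA repeat was also less frequent at shared summits, 18.3% against 24.1% (difference -5.82 points, Fisher's exact test, adjusted p = 0.0396). Both differences had the same direction in 12 of 12 alternatives but missed the threshold in 8 of 12, among them each of those that leave out a replicate. The extended half-site (TCAAGGTCA) was at none of the 531 summits, which allows a share of up to 0.565%, and at 0.551% of all autosomal summits.

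None of the 10 motifs differed between divergent and same-strand summits after adjustment with Fisher's exact test. The GAGA repeat came closest, in 17.9% of divergent and 35.7% of same-strand summits (Fisher's exact test, unadjusted p = 0.0126, adjusted p = 0.126), and was the one motif with an unadjusted p under 0.05. The promoter hexamer was in 16.1% and 26.2%. The E-box (CACGTG), the Grainyhead-type site (AACCGGTT), the GATA-type site (AGATAA) and the run of 8 T bases were not called against the flanks. Of all autosomal summits 5.7%, 1.05%, 7.52% and 6.86% held them. Along the order of signal, the promoter hexamer was in 24.3% of the first of 5 equal parts of the shared sites, 24.5%, 17.0% and 5.66% of the next, and 12.3% of the weakest.

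**Figure D5:**
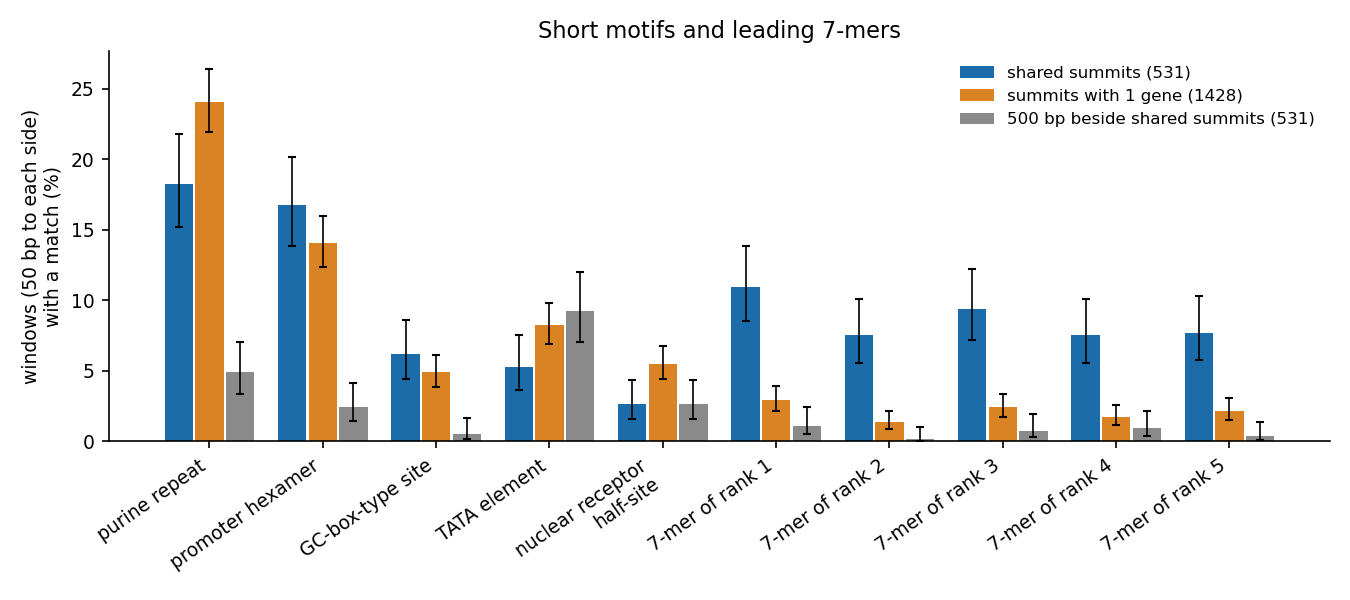
Share of windows of 50 bp to each side, in %, that hold each motif (left) and each of the 5 leading 7-base strings (right), at the 531 shared summits, at the 1428 summits with a single gene and 500 bp beside the shared summits, with 95% Wilson intervals over sites. The purine repeat is the GAGA repeat; rank 1 stands for CGAGACC, while rank 2 is ACCGTAC, rank 3 is GAGACCC, rank 4 is TACCGTA and rank 5 is CGCGCCA. The 5 strings are at 7.53% to 10.9% of shared and at most 2.94% of single-gene summits.

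Because few of the motifs set shared sites apart, all 7-base strings were compared between the 531 shared and the 1428 single-gene summits, a test added after the first results had been seen. Of 3119 strings held by 20 or more windows, each counted together with its reverse complement, 129 (4.14%) were more frequent and 43 (1.38%) less frequent at shared summits (Fisher's exact test, two-sided, Benjamini-Hochberg over 3119 strings, at 0.05). Keeping only sites supported by both other replicates, and so fewer sites, the 172 calls became 67 without replicate 1, 79 without replicate 2 and 95 without replicate 3. The mean GC content was 61.0% for the strings that were more frequent, 32.2% for those that were less frequent and 42.9% for all strings tested. The summits themselves had 45.2% GC when shared and 42.0% with a single gene, and the part of base composition in these calls was not tested.

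CGAGACC was at 58 of 531 shared summits (10.9%, 95% Wilson interval 8.55 to 13.9), 42 of 1428 single-gene summits (2.94%), 6 of the 531 flanks (1.13%) and 3.14% of all autosomal summits. It was 3.71-fold more frequent at shared than at single-gene summits (Fisher's exact test, adjusted p = 9.10e-08). By class, it was at 10.8% of divergent but only 2 of the 42 same-strand summits (4.76%). The excess is therefore shown for shared sites as a whole, most of them divergent, and the classes were not tested against each other. In the strongest regions of replicates 1, 2 and 3 on their own it was at 9.89%, 9.23% and 9.29% of shared and 2.85%, 3.29% and 2.69% of single-gene summits, so every value at shared summits was above every value at single-gene summits. The replicates share many sites and are not separate evidence for a string picked on the joint list. Among summits within 300 bp of a start it was at 11.9% of shared and 2.87% of single-gene sites.

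The string had a longer shape. In the 58 shared windows with a match, the base 6 before it was T in 52, the base 5 before it C in 55 and the base 4 before it G in 52, as in the aligned sequences above, and the letters TCG stood there together in 46 (79.3%). The base just before it was G in 42. Over the autosomes CGAGACC occurs 10096 times, and 118 occurrences (1.17%) were within 50 bp of a summit. TCG stood in that place at 4392 of the 10096 occurrences, and at 203 of the 401 that lie in shared windows. The longer shape is thus common away from summits too, and not particular to the 58 windows. Of the 203, 46 (22.7%) were within 50 bp of a summit. This was so for 25 of 1111 (2.25%) in windows of a single gene and 4 of 3078 (0.130%) outside promoter windows. Where other letters stood in place of the TCG, the string was within 50 bp of a summit at 13 of 198 occurrences in shared windows (6.57%). These counts were made after the shape had been seen and carry no test.

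Genes at the sites with CGAGACC belong to several of the groups above. They include cct-1, a chaperonin subunit gene, top-2, which encodes topoisomerase II, htz-1, which encodes histone H2A.Z, vha-8, a V-ATPase subunit gene, and fib-1, which encodes fibrillarin. Of the 58 sites 49 were divergent and 45 (77.6%) were found in all 3 replicates, beside 453 and 363 (68.4%) of all 531 shared sites. The median distance of the string from the summit was 13 bp. In 5 equal parts by signal it was at 17.8% of the strongest sites, 13.2% of the next and between 6.60% and 8.49% of the 3 others.

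Other strings among the 10 of lowest p overlapped each other in letters. GAGACCC (9.42% of shared, 2.45% of single-gene and 3.06% of all autosomal summits, adjusted p = 3.68e-07 with Fisher's exact test) shares 6 letters with the leading string. A second set is formed by ACCGTAC (7.53%, 1.401% and 2.01%, adjusted p = 1.43e-07 with Fisher's exact test), TACCGTA (7.53%, 1.75% and 2.34%) and CCGTACC (4.71%, 0.980% and 1.35%). These strings were at none of the 42 same-strand summits and at 8.61%, 8.83% and 5.52% of divergent summits. The upper Wilson limit for 0 of 42 was 8.38%, above the divergent share of CCGTACC and slightly below those of ACCGTAC and TACCGTA. The absence is therefore not evidence that the strings are particular to divergent sites, and a difference between the classes was not tested. CGCTCCA (9.60%, 3.36% and 3.09%) and GCTCCAC (5.84%, 1.401% and 1.63%) form another set. CGCGCCA (7.72%, 2.17% and 2.34%) and AACGCGC (10.5%, 4.06% and 3.75%) also overlap, since the former begins with letters that end the latter, and ATTTACG was at 6.59%, 1.89% and 2.34%. One or more of the 10 strings was at 228 shared summits (42.9%), 211 single-gene summits (14.8%) and 33 flanks (6.21%), values that follow from the choice of the strings. Among the strings that were less frequent, AAGAAGA was at 2.64% of shared and 7.21% of single-gene summits (adjusted p = 0.00495 with Fisher's exact test), and AGATAGA at 0.753% and 3.85%.

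The letters repeated in the strongest sequences were counted as a description, with no test, since they were picked from those sites. CTACGCAG was at 11 shared summits, 10 of them among the 107 strongest and 1 among the other 424. It was at 2 of 1428 single-gene summits and at none of the 531 flanks, and at 0.386% of all autosomal summits. Its sites include rpl-24.1/rps-10 and eef-1G/ctf-4 beside those printed above. CATACACT was at 6 shared summits, 4 of them among the 20 strongest, at 7 single-gene summits (0.490%) and at 0.661% of all autosomal summits. CGCTCCAC was at 28 shared summits, with 13 among the 107 strongest and 2 among the 106 weakest, and at 17 single-gene summits (1.19%).

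To set bound pairs beside unbound ones, windows of 50 bp to each side of the midpoint between the starts were compared for divergent pairs with starts up to 500 bp apart, 263 with a shared site and 690 without. This comparison was added after the first results had been seen. None of the 10 motifs was called with Fisher's exact test (two-sided, Benjamini-Hochberg over 10 motifs), and 2 had an unadjusted p under 0.05. These were the promoter hexamer, at 8.75% of bound and 4.49% of unbound midpoints (difference 4.25 points, 0.877 to 8.49, Fisher's exact test, adjusted p = 0.165), and the TATA element, at 9.51% and 14.8% (difference -5.28 points, -9.40 to -0.456, Fisher's exact test, adjusted p = 0.165). The GAGA repeat was at 10.6% and 10.3%. The half-site AGGTCA was at 2.28% and 2.75%, a difference of -0.472 points with an interval from -2.42 to 2.31. The leading 7-base strings were picked at sites that include the bound pairs, so their shares are a description with no test. GAGACCC was at 6.46% of bound and 1.59% of unbound midpoints, CGCGCCA at 4.56% and 1.01%, and CGAGACC at 6.46% and 2.17%. The mean GC content was 37.7% at bound and 34.7% at unbound midpoints. At all 531 shared summits it was 45.2%, and the GAGA repeat was at 18.3% of them. A midpoint window need not hold the summit of a bound pair. The lack of a call therefore does not show that the motifs are alike at bound and unbound pairs.

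At the edge of the rule, windows shorter by 100 bp at each end would drop 39 of the sites, which had a median signal of 204.3 and were found in all 3 replicates at 59.0%. Windows longer by 100 bp would add 36 sites, with a median signal of 162.4, of which 18 were found in all 3 replicates.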

How the data were processed

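Regions, signals and summits are as the authors deposited them. A note with the files says that regions were called per replicate and pooled against a shared control, and that the optimal list passed a reproducibility threshold (irreproducible discovery rate). Aligner and peak caller: not given in the sources used here. Signals that the authors deposited have no stated scaling, so lists were compared by rank. Each replicate list holds 30000 regions, peaks mixed with background, of which the strongest 4548 were used. Pooled and ce10 lists were not used here.

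Gene models were those of Ensembl release 115 and the sequence was RefSeq's of the same assembly, with 205 names taken from RefSeq. Coordinates are 1-based. Replicate support meant an overlap of at least 1 bp. Tests were exact binomial, Fisher's and McNemar tests (scipy 1.17.1, Python 3.11.15), two-sided, with Benjamini-Hochberg adjustment at 0.05, and were tested on simulated data. Intervals are 95% Wilson or Newcombe intervals and cover counting error only; a count of 0 was read as up to 3 counts.

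The members, motifs, lists and tests were chosen with earlier results of these data known. Named genes come from the 12 strongest divergent and the 12 strongest same-strand sites found in all 3 replicates. They also come from the 6 strongest sites with 3 or more genes and the 2 strongest of each list. Not all of these sites are mentioned. Other named sites were chosen after their values were seen: rpl-24.1/rps-10, rps-30/rpl-39, rsp-1/rsp-2, col-160/col-159, rpb-7/Y54E10BR.2, fib-1, wapl-1/htz-1, cap-2/gmps-1 and eef-1G/ctf-4. No sequence from the first chromosome is shown. Alternatives changed the promoter window, starts, merging, list, replicates, overlap, motif window and flank. The comparison of densities, the 7-base strings, the bound and unbound pairs and the alternatives on nearby summits and ribosomal genes were added after the data had been seen.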

Additional observations from a re-analysis of the deposited data

How the results depend on the processing

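The excess of summits in shared windows kept its direction and its call in all 8 alternatives, from 1.82-fold (2000 bp windows) to 3.62-fold (500 bp windows), as did the difference in signal in 9 (14.8 to 17.9 points) and the ratio of divergent to same-strand density in 5 (up to 1.67). The difference in support between shared and single-gene sites held in 13 of 14 and was 1.85 points, without a call, among the stronger 2274 regions. Divergent against same-strand support changed sign without any call, at -2.57 points among the stronger regions, -9.11 with 50% overlap, -3.64 with 0.5 times and -3.50 with 2 times as many regions, and between -4.89 and 2.35 when a replicate was left out; the signal comparison ran from -2.24 to 4.99 when a replicate was left out. With 500 bp windows these differences rose from 2.21 to 17.05 points (Fisher's exact test p = 0.163) and from 3.26 to 15 (Fisher's exact test p = 0.262), still without a call. The count of motifs called between shared and single-gene summits, 2, became 1 (500 bp windows), 5 (2000 bp), 0 (most upstream starts), 0 (stronger regions), 0 (motif window of 25 bp), 5 (100 bp), 1 (summits within 300 bp of a start), 0 (without ribosomal protein genes) and 0 to 0 without a replicate. Between divergent and same-strand summits it became 1 with most upstream starts, where the GAGA repeat differed by -21.5 points, and with 2000 bp windows that repeat's difference changed sign to 1.60. Among the 8 motifs not named in that comparison 6 changed sign in at least 1 of 12 alternatives. The count of 172 strings of 7 bases became 33 (500 bp windows), 108 (most upstream starts), 47 (stronger regions), 62 (25 bp), 73 (within 300 bp) and 67 to 95 without a replicate, which test fewer sites or bases; of the 5 leading strings, 4 were called in 12 of 12 and TACCGTA in 11. The count of motifs called between bound and unbound pairs, 0, became 1 with starts up to 300 bp apart. The cause of other changes was not tested. No paired analysis was possible because the samples form 1 group.

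Depth is unknown, signals have no stated scaling, the control library was not analysed here, and 42 same-strand sites leave wide intervals. Annotated starts need not be transcription starts, and sites with 3 or more genes hold several pairs each.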
